A study of Mus musculus with 4 samples.

Results

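Non-classical monocytes were defined in the whole-lung single-cell data as cells in which at least 3 of Cd300e, Eno3, Adgre4, Treml4 and Fcgr4 had a unique molecular identifier (UMI, 1 captured transcript). They also had a UMI of at most 2 of the alveolar macrophage genes Ear1, Marco, Atp6v0d2, Plet1 and Krt79, and none of the T cell gene Cd3e, the B cell gene Cd79a or the endothelial gene Cdh5. Of 9363 cells, 546 met this rule. The libraries came from 4 mice, 1 library each. WT mice carried loxP-flanked Erg alleles (ERG fl/fl) without Cre, and ERG CKO mice carried the same alleles with CDH5-CreER(T), a tamoxifen-inducible Cre recombinase driven by an endothelial promoter. All mice were on a C57/BL6 background and received 5 daily injections of 0.5 mg tamoxifen, and the lungs were taken 90 days later. The age of these mice is not given in the sources used here. The Cre driver targets endothelial cells (ECs), so the monocytes of ERG CKO mice were not the cells in which the deletion was meant to occur, and 1 UMI of Erg was counted among all 546 monocytes.

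Non-classical monocytes are blood monocytes that stay close to the vessel wall, crawl along the endothelium and clear debris from its surface. In mice they are known for low Ly6C, high CD43 (encoded by Spn) and high fractalkine receptor (encoded by Cx3cr1), and they mostly arise from Ly6C-high classical monocytes with the help of the nuclear receptor Nr4a1. The lung capillary bed holds many of them, which makes them a myeloid cell type in direct contact with the endothelium that was targeted here.

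WT replicate 1 gave 69 members and WT replicate 2 gave 158, while ERG CKO replicate 1 gave 205 and ERG CKO replicate 2 gave 114. Their median depth was 5630, 6437, 5907 and 6823 UMIs per cell in the same order, and none of them was called a doublet. Libraries held 1852 to 3097 cells in all. In ECs of the same libraries, Erg stood at 90.7 and 81.0 counts per 1000000 UMIs (CPM) in WT and at 96.5 and 80.2 CPM in ERG CKO, so the counts do not show the deletion and the genotype rests on the labels. Xist was counted in the members of replicate 1 of each genotype and not in replicate 2, whereas Ddx3y was counted in replicate 2 only, so each genotype had 1 library of either kind.

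The promoters of the marker genes are shown because ERG and PU.1 (encoded by Spi1), a master regulator of myeloid cells, both belong to the ETS family, whose members read a GGAA core. The sequences are RefSeq promoters (GRCm38.p6) from 250 bases before to 50 bases after the gene start, written along the gene, with the letters GGAAGT or their reverse complement ACTTCC in capitals. Cd300e encodes an activating receptor of the CD300 family, Eno3 the muscle form of enolase, Adgre4 an adhesion G protein-coupled receptor, Treml4 a receptor of the TREM family that binds dead cells, and Fcgr4 an activating IgG receptor.
Cd300e: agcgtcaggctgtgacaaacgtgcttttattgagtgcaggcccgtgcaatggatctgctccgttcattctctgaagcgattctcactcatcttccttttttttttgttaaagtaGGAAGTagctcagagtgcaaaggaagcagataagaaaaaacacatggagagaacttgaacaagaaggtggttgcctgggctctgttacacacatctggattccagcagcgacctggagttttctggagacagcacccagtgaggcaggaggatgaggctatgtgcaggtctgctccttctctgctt
Eno3: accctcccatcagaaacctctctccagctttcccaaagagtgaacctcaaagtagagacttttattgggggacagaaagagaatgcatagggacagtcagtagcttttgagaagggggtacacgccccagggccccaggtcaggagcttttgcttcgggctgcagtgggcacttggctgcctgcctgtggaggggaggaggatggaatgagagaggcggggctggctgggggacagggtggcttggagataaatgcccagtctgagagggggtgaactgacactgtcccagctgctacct
Adgre4: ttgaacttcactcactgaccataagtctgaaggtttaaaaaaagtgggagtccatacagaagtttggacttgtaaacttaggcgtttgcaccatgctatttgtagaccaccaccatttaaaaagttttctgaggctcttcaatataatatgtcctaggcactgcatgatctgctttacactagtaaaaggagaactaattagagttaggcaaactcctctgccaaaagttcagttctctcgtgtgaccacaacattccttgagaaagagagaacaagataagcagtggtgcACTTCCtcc
Treml4: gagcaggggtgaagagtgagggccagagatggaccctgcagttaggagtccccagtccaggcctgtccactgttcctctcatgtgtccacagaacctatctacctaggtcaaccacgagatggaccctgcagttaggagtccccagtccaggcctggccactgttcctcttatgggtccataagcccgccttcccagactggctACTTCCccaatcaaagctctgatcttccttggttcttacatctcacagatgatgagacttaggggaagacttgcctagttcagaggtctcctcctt
Fcgr4: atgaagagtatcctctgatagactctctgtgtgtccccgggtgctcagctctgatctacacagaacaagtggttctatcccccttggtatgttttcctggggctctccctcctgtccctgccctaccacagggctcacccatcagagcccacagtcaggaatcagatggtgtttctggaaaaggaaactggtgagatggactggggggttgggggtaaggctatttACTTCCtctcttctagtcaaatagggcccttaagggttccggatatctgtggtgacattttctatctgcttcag
They lie at chr11:115061990-115062289 on the minus strand (Cd300e) and, on the plus strand, at chr11:70656926-70657225 (Eno3), chr17:55749734-55750033 (Adgre4), chr17:48264045-48264344 (Treml4) and chr1:171018676-171018975 (Fcgr4). GGAAGT was found on either strand in 4 of the 5 promoters, all except that of Eno3, and in 23.8% of 32851 mouse promoters of the same length. The first base of the match lay 136 bases before the start in Cd300e, 46 before it in Treml4, 24 before it in Fcgr4 and 41 after it in Adgre4. The longer letters GAGGAAGT, a form read by PU.1, overlapped these matches in Adgre4 and Fcgr4 and occurred in 3.20% of all promoters. Neither AAAGGTCA, the element read by NR4A1 monomers (1.51% of all promoters), nor TTGCNNCAA, a form read by C/EBP factors (2.08%), was found in any of the 5. Of the 15 leading genes of the monocytes (named below) that had a promoter in the table, 5 held GGAAGT.

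The label was checked against genes that the rule did not use. As the members were chosen on their expression, these levels are a description. Spn stood at 572, 585, 554 and 575 CPM in the 4 libraries, against 66.0 CPM in 103 classical monocytes, which were taken by at least 3 of Ly6c2, Ccr2, F13a1, Vcan and Mgst1. Itgal, the alpha chain of the integrin LFA-1 used for crawling on ICAM-1, was at 1131 to 1272 CPM in the members and at 253 CPM in classical monocytes. Nr4a1 was at 1207 to 1387 CPM against 493 CPM. The classical genes were low in most members. As Ly6c2 and Ccr2 helped to choose the classical monocytes, their levels there were fixed by that choice and are given for scale. Ly6c2 was at 149, 54.9, 126 and 53.4 CPM in the members and at 1295 CPM in classical monocytes, and Ccr2, the receptor that takes classical monocytes out of the marrow, at 42.0 to 96.3 CPM against 798 CPM. All members had a UMI of the leukocyte gene Ptprc. On Spn, Itgal and Nr4a1, which chose neither group, and on the low Ly6c2 of most members, the data did not go against the label, with exceptions described below.

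The genes with the largest ratio of mean CPM in the members over all other lung cells, among 2468 genes at 50 CPM or more in every library, were led by Tiam2, a Rac activator, at 46.3 times the level of the other cells, and by Tmem26 at 46.3 times. Tmem26 averaged 57.2 CPM in the members and had no UMI in the classical monocytes. Clec4a1, an inhibitory C-type lectin receptor, followed at 37.0 times (455, 475, 519 and 496 CPM). Transcriptional control was represented by Pou2f2, which encodes OCT2, at 1109, 1103, 1037 and 1088 CPM in the members and 229 CPM in classical monocytes. Signalling genes included Dusp16, a MAP kinase phosphatase (mean 592 CPM against 13.98 CPM in classical monocytes), the Rap regulator Rap1gap2 (189 against 43.7 CPM), Arhgef10l (191 against 79.6 CPM) and Adrbk2 (386 against 81.9 CPM), a kinase of G protein-coupled receptors. S1pr5, a sphingosine-1-phosphate receptor by which these cells leave the marrow, averaged 121 CPM in the members, 7.59 CPM in classical monocytes and 0.243 CPM in alveolar macrophages. Among receptors of growth and position, Csf1r averaged 934 CPM and Cx3cr1 285 CPM, against 483 and 128 CPM in classical monocytes. Interstitial macrophages, with 649 CPM of Csf1r and 431 CPM of Cx3cr1, lay near or above the members for these genes. Serpinb10 was the exception among the 20, since its mean in classical monocytes (142 CPM) was above that of the members (115 CPM).

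**Figure D1:**
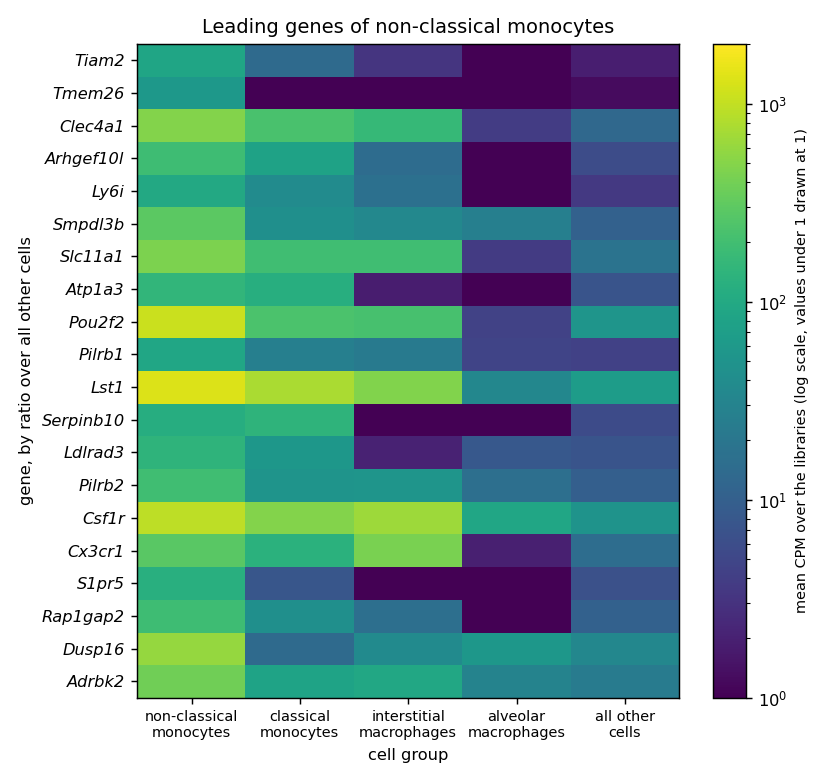
Mean CPM over the libraries (colour, log scale) of the 20 leading genes, from Tiam2 at the top to Adrbk2 at the bottom, in the members, in 3 other myeloid groups and in all other cells. Tmem26 and S1pr5 were under 10 CPM in every other column, whereas Lst1, Csf1r and Cx3cr1 were shared with classical monocytes and interstitial macrophages.

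The members were graded by how many of the 5 markers they showed. There were 318 members with all 5 markers, 142 with 4 and 86 with 3, and a further 99 cells met the other limits but had only 2 markers. Median depth did not track this number (6771, 5583 and 6302 UMIs for 3, 4 and 5 markers). Spn was at 247 CPM in the members with 3 markers, 539 with 4 and 678 with 5. Ace, the gene of angiotensin-converting enzyme, was at 405, 624 and 804 CPM, and Pou2f2 at 552, 1110 and 1217 CPM in the same order. Ly6c2 was at 476 CPM in the members with 3 markers and at 9.79 and 9.51 CPM in those with 4 and 5. Ccr2 was at 361, 53.3 and 20.3 CPM, and the complement gene C1qa, a marker of interstitial macrophages, at 676, 89.2 and 6.49 CPM. The members nearest to the limit thus carried more RNA of classical monocytes and macrophages than the members with 5 markers, and the 99 cells just outside had 90.5 CPM of Spn, 401 CPM of Ly6c2 and 363 CPM of Ccr2.

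**Figure D2:**
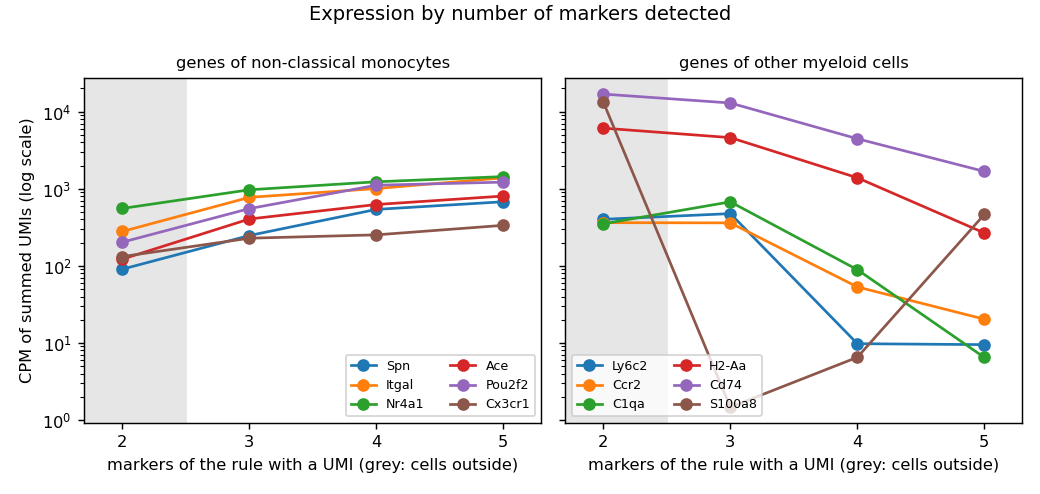
CPM of summed UMIs (log scale) of 6 genes of non-classical monocytes (left) and 6 genes of other myeloid cells (right) against the number of markers with a UMI; the grey band marks the 99 cells with 2 markers, which are outside the group. Spn, Itgal, Nr4a1, Ace, Pou2f2 and Cx3cr1 were highest with 5 markers, and Ly6c2, Ccr2, C1qa, H2-Aa and Cd74 were lowest there, while S100a8 was at 1.47 CPM with 3 markers and 464 CPM with 5.

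Marker lists of 13 other cell types were counted in the members. At least 3 markers of another type were found in 54 members, comprising 27 of the 86 with 3 markers, 11 of the 142 with 4 and 16 of the 318 with 5. Summed over its 5 genes, the classical monocyte list stood at 437 and 394 CPM in WT and 391 and 309 CPM in ERG CKO. The interstitial macrophage list stood at 25.7 and 440 CPM in WT and at 426 and 573 CPM in ERG CKO, with 0 to 2 of its 5 genes at 0 in a library. The neutrophil list was at 395 and 1464 CPM in WT and at 87.2 and 1113 CPM in ERG CKO, and the platelet list at 7.004 and 150 CPM against 164 and 62.3 CPM. The dendritic cell list was at 7.004 and 25.3 CPM in WT and at 70.0 and 14.5 CPM in ERG CKO, with 2 to 4 of its 5 genes at 0 in each library. Lists of fibroblasts, NK cells, T cells and alveolar macrophages stayed at or under 11.7 CPM in every library. The rule limited all 5 alveolar macrophage genes and the T cell gene Cd3e, so the levels of these lists were in part fixed by it. Much of the RNA of other types sat in few cells. Of 1081 UMIs of S100a8 in the members, 2 cells held at least 50%, and 3 cells held that share of Ly6c2, of C1qa and of Mgl2, whereas the median among 4578 genes with 100 or more UMIs was 62 cells.

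Whether loss of endothelial ERG changed the number of these monocytes was asked from their share of each library. Of all WT cells they were 3.05% in replicate 1 (95% Wilson interval 2.42 to 3.84) and 7.35% in replicate 2 (6.32 to 8.53). Of all ERG CKO cells they were 6.62% in replicate 1 (5.80 to 7.55) and 6.16% in replicate 2 (5.15 to 7.34). These intervals cover counting error only. The WT libraries lay on either side of both ERG CKO libraries and were farther from each other than from them. The mean share was 5.20% ± 3.04 (SD, n = 2 mice) in WT and 6.39% ± 0.328 (SD, n = 2) in ERG CKO, a difference of 1.19 percentage points (exact two-sided permutation test, p = 1, where the smallest p that 2 against 2 allows is 0.333). Without WT replicate 1 the difference was -0.961 points. As a share of cells with a Ptprc UMI, the members stood at 5.96% and 14.9% in the WT libraries and at 13.9% and 11.4% in the ERG CKO libraries.

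Counted against classical monocytes only, the groups did not overlap. The members were 69.7% (60.05 to 77.9) and 80.2% (74.1 to 85.2) of the sum of both monocyte types in WT, and 92.3% (88.1 to 95.2) and 87.0% (80.2 to 91.7) in ERG CKO. The mean was 74.95% ± 7.43 (SD, n = 2) in WT and 89.7% ± 3.76 (SD, n = 2) in ERG CKO, 14.7 points apart (p = 0.333 in the exact permutation test, which is as low as this design goes). This share rests on 30 and 39 classical monocytes in WT and 17 in each ERG CKO library.

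**Figure D3:**
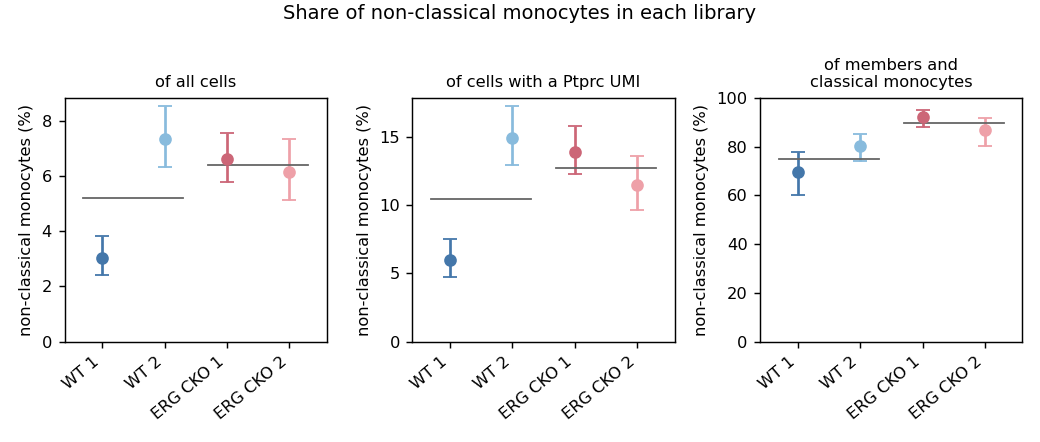
Non-classical monocytes as a percentage of all cells, of cells with a Ptprc UMI, and of the sum of members and classical monocytes, in each of the 4 libraries. Bars are 95% Wilson intervals and grey lines the group means; WT replicate 1 was the lowest library in every panel, and the groups did not overlap in the last panel only.

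Gene expression in the members was compared between ERG CKO and WT on UMIs summed per mouse, with edgeR's quasi-likelihood test and Benjamini-Hochberg adjustment over 7205 genes. It called 3 genes (0.0416%), all higher in ERG CKO, and 342 genes (4.75%) had an unadjusted p under 0.05. DESeq2 called 2 genes. The 3 genes are known from tissue macrophages and dendritic cells, and their UMIs came from few cells.

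Mgl2, which encodes the galactose-binding lectin CD301b of dendritic cells and alternatively activated macrophages, had no UMI in either WT library and 210 and 82 UMIs in the ERG CKO libraries (0, 0, 150 and 91.2 CPM). It rose by 9.89 ± 0.78 (SE) on the fitted log2 scale (edgeR, adjusted p = 0.00212), and was at least 68.3-fold higher when WT was set to a floor of 3 counts over the group. These UMIs came from 7 of 205 and 3 of 114 members. Mmp12, the macrophage elastase, had no UMI in WT and 53 and 36 UMIs in ERG CKO, from 2 cells in each library (fitted log2 change 8.23 ± 0.86 SE, edgeR adjusted p = 0.0122, at least 20.8-fold over the same floor). Dab2, an endocytic adaptor of tissue macrophages, had 0 and 1 UMIs in WT and 39 and 28 in ERG CKO, from 8 and 4 cells (log2 change 5.26 ± 0.68 SE, edgeR adjusted p = 0.0275, count ratio 47.0 with a 95% exact interval of 8.15 to 1883). The exact interval covers counting error only. Without WT replicate 2, Mgl2 stayed called, and Mmp12 and Dab2 had log2 changes of 8.14 and 7.74 that were no longer called.

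The 10 members with Mgl2 stood apart from the rest. Their median depth was 18313 UMIs, against 6174 in the other members, and 6 of them showed 3 markers, 3 showed 4 and 1 showed 5. They held 45.2% of all member UMIs of H2-Aa, 49.8% of H2-Ab1, 52.2% of H2-Eb1, 70.1% of Cd209a and 61.0% of Mrc1, and 4 of them had C1qa. In interstitial macrophages Mgl2 stood at 998 CPM, Mmp12 at 448 CPM and Dab2 at 504 CPM, whereas classical monocytes had 3.26, 0.815 and 0 CPM. When each gene lost its highest cell, when 4 or more markers were asked for, or when all 5 were (an alternative added after seeing the data), edgeR called 0 genes, and 336, 342 and 275 genes had an unadjusted p under 0.05. The fitted changes stayed large where they could be computed: without the highest cell the log2 change was 8.99 for Mgl2 and 6.91 for Dab2, and with 4 or more markers it was 8.61 for Mgl2. With members carrying 3 or more markers of another cell type left out, also added after seeing the data, Mgl2 stayed called and Mmp12 and Dab2 did not pass the filter on low counts. The part of macrophage or dendritic cell RNA in these 3 changes was not tested.

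**Figure D4:**
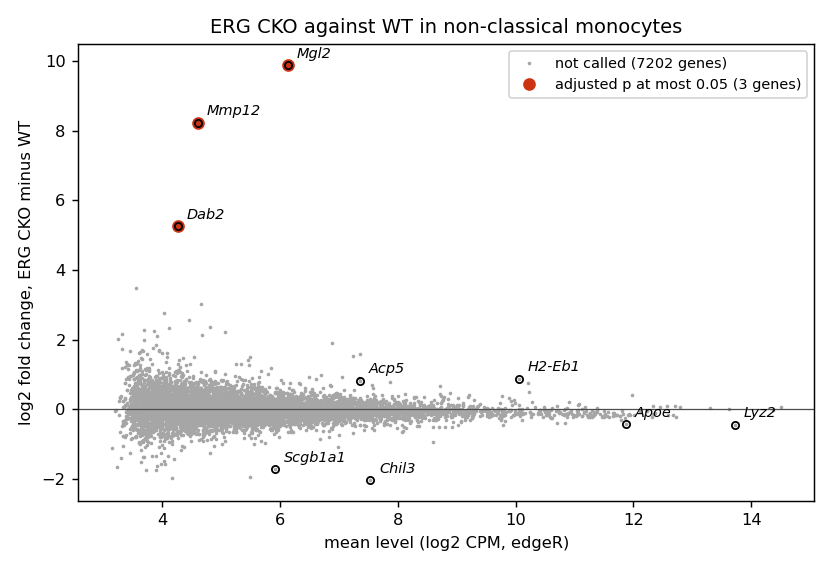
Log2 fold change (ERG CKO minus WT) against mean log2 CPM for 7205 genes in the members; red points are the 3 genes with an edgeR adjusted p at most 0.05, and black rings mark genes named in the text. Mgl2, Mmp12 and Dab2 lie far above all other genes at low mean levels, and Apoe and Lyz2 lie slightly below 0 at high levels.

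Among genes that were not called, those with the lowest p above 0 were Ccnd1, Basp1, Acp5, Rgs1 and Arhgap18, and those below 0 were Chil3, Scgb1a1, Apoe, Lyz2 and Mybpc3 (edgeR adjusted p 0.251 to 0.585). Acp5, tartrate-resistant acid phosphatase, was the most widely detected of the first 5, in 30 of 69 and 54 of 158 WT members and in 122 of 205 and 69 of 114 ERG CKO members. Its level was 119 and 105 CPM in WT and 216 and 188 CPM in ERG CKO, so the groups did not overlap. Ccnd1, which encodes cyclin D1, was at 4.67 and 8.45 CPM in WT and at 46.4 and 31.1 CPM in ERG CKO, from 23 cells in all. Rgs1, a brake on G protein signalling, was at 60.7 and 84.5 CPM in WT and at 320 and 145 CPM in ERG CKO. The log2 changes of the 3 were 0.83, 2.36 and 1.59, and all 3 kept their sign in every alternative that could be run. Without members carrying 3 or more markers of another cell type, the change of Acp5 was 0.88, that of Ccnd1 fell to 1.55 and that of Rgs1 to 0.60, and interstitial macrophages held 1127 CPM of Rgs1.

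Of the genes on the lower side, Apoe and Lyz2 were present in nearly all members. Apoe, the lipid carrier apolipoprotein E, was at 4097 and 4236 CPM in WT and at 3286 and 3143 CPM in ERG CKO (log2 change -0.42 ± 0.079 SE, edgeR adjusted p = 0.251). Lyz2, lysozyme, was at 14746 and 15352 CPM against 10066 and 12928 CPM (-0.43 ± 0.10 SE, adjusted p = 0.585). Both were lower in each ERG CKO library than in each WT library, but neither passed the test. With the replicate number as a block, which also follows the split of Xist and Ddx3y, Lyz2 was called lower, as were Chil3, Scgb1a1 and Thbs1, and the metallothionein gene Mt1 was called higher. Of 499 UMIs of Mt1 in the members, 4 cells held at least 50%. Its log2 change without the block was 1.92, and 1.12 when members carrying 3 or more markers of another type were left out. Chil3, a chitinase-like protein abundant in alveolar macrophages, was at 149 and 406 CPM in WT and at 59.3 and 92.3 CPM in ERG CKO. Of its 481 UMIs in WT replicate 2, 1 cell held 112. Classical monocytes held 1419 CPM of Chil3, 38441 CPM of Lyz2 and 1313 CPM of Thbs1, and T cells held 176, 353 and 8.02 CPM. The part of RNA of other cells in these changes was not tested. Scgb1a1, the secretoglobin of airway club cells, had a UMI in 44.9%, 46.8%, 20% and 7.02% of the members. In T cells of the same libraries these shares were 45.9%, 29.5%, 24.0% and 5.97% (median depth 6162 UMIs in T cells and 6188 in members). The member share was below the T cell share in replicate 1 of both genotypes and above it in replicate 2, mostly in WT. In classical monocytes, at a median depth of 11367 UMIs, the shares were 60%, 61.5%, 47.1% and 17.6%. The part of background RNA was not tested. Without members carrying 3 or more markers of another type, Scgb1a1 was also called lower (log2 change -1.93).

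The genes of MHC class II, which present peptides to CD4 T cells, were higher in both ERG CKO libraries than in both WT libraries for all 6 tested genes, a pattern shown by 22.1% of all genes. None was called, 5 of 6 had an unadjusted p under 0.05, and the median log2 change was 0.46, against 0.0045 over all genes. H2-Aa was at 890 and 1031 CPM in WT and at 1760 and 1058 CPM in ERG CKO, H2-Ab1 at 766 and 916 against 1812 and 1161 CPM, and H2-Eb1 at 530 and 892 against 1707 and 1035 CPM. Cd74, the invariant chain, was at 2881 and 3863 against 5270 and 3964 CPM. ERG CKO replicate 1 was the highest library for each of these 4 genes, and the second ERG CKO library lay close to WT replicate 2 for H2-Aa and Cd74.

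This RNA was held by a small subset of the members. With a line drawn at 100 MHC class II UMIs per cell after the data were seen, 39 members (7.14%) held 85.8% of these UMIs. There were 4 and 13 such cells in the WT libraries and 14 and 8 in the ERG CKO libraries, which was 5.80%, 8.23%, 6.83% and 7.02% of their members. Of the 39, 22 showed 3 of the markers, 9 had Mgl2 and 16 carried 3 or more markers of another cell type, and their median depth was 11922 UMIs against 6049 in the rest. In the members under the line, the 6 genes summed to 1050 and 1750 CPM in WT and to 1218 and 1190 CPM in ERG CKO, so the groups overlapped. The direction of the class II genes depended on the choice of cells. All 6 stayed above 0 when each gene lost its highest cell (median log2 change 0.59) and with all 5 markers (0.53), and none was called there. In members with 4 markers the 6 genes summed to 3802 and 6748 CPM in WT and to 11224 and 10340 CPM in ERG CKO. With 3 markers they summed to 16881 and 20128 CPM in WT and to 39170 and 19718 CPM in ERG CKO. With 5 markers they summed to 1445 and 2619 CPM in WT and to 1124 and 4609 CPM in ERG CKO. The groups thus overlapped with 3 and with 5 markers, and ERG CKO replicate 1 was the lowest library with 5. In 2 other subsets the direction turned. Without members carrying 3 or more markers of another type, the 6 genes summed to 4657 and 5095 CPM in WT and to 4136 and 4311 CPM in ERG CKO. Without cells having 2 or more UMIs of endothelial, epithelial, platelet, neutrophil or red cell genes, they summed to 8726 and 8012 CPM against 2904 and 2549 CPM, and edgeR then called all 6 lower, H2-Aa by a log2 change of -2.24. In that subset, 3 cells held 82.8% and 61.9% of the class II UMIs of the WT libraries.

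**Figure D5:**
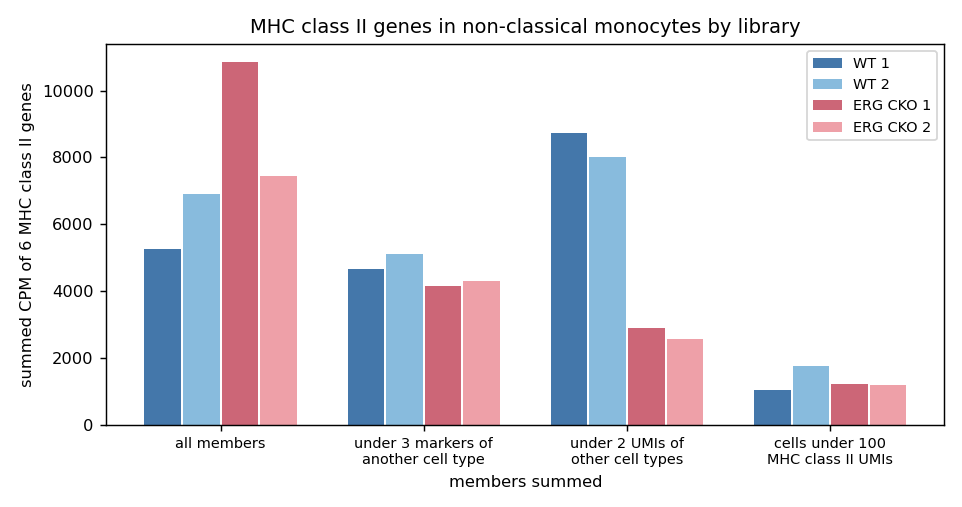
Summed CPM of 6 MHC class II genes in each library, for all members, for 2 subsets without cells that carry RNA of other types, and for the members with under 100 class II UMIs. The ERG CKO bars are the higher ones in the first set and the lower ones in both subsets, and in the last set WT replicate 2 is the highest.

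The other gene lists, taken by the roles of these monocytes, had 0 called genes each, and in most lists the libraries overlapped for more genes than they separated. For adhesion and crawling, 14 genes were tested, 7 on either side of 0 (median log2 change 0.0062). Itgb2, the beta chain shared by LFA-1 and Mac-1, was at 1097 and 1123 CPM in WT and at 1080 and 1299 CPM in ERG CKO, and Itgal and Spn overlapped in the same way. Itga4, the alpha chain of VLA-4, did not overlap, with 826 and 802 CPM in WT and 1087 and 1009 CPM in ERG CKO. Among receptors of survival and chemotaxis (9 tested, 3 above 0, median -0.036), Csf1r overlapped, at 801 and 1051 CPM against 937 and 948 CPM. Cx3cr1 did not overlap, at 226 and 299.9 against 314 and 300.3 CPM, but its nearest libraries were almost equal. S1pr5 overlapped, at 103 and 142 against 118 and 122 CPM.

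Of 12 transcription factors of monocyte fate, 11 had a log2 change below 0 and 1 above it, where 50.6% of all genes lay above 0. The changes were small, with a median of -0.17 and a range of -0.29 to 0.25, and none had an unadjusted p under 0.05. Nr4a1, on which the survival of these cells depends, was at 1307 and 1387 CPM in WT and at 1207 and 1357 CPM in ERG CKO. Cebpb, which acts upstream of Nr4a1 in monocytes, was at 3584 and 3641 against 3032 and 3462 CPM, and Klf4 at 943 and 899 against 689 and 869 CPM, so these 2 did not overlap, a pattern shown on the lower side by 13% of all genes. Klf2, Spi1 and Irf8 overlapped. Among Fc receptors and adaptors (10 tested, 3 above 0), the activating receptor Fcgr3 was at 271 and 236 CPM in WT and at 182 and 204 CPM in ERG CKO, and the inhibitory receptor Fcgr2b at 128 and 95.4 against 145 and 136 CPM. Fcgr4, a marker of the rule, is 1 of the 10, so its level was in part fixed by the choice of cells. Its values were 556 and 542 against 802 and 575 CPM. The common gamma chain Fcer1g overlapped at 3658 to 4094 CPM.

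Complement and scavenging genes had 9 of 12 log2 changes above 0, with a median of 0.060. Cd36, a scavenger receptor for oxidised lipid, was among the most abundant and overlapped, at 551 and 444 CPM in WT and at 511 and 541 CPM in ERG CKO, and C5ar1 overlapped at 37.4 to 122 CPM. C3 was at 74.7 and 186 against 85.0 and 82.3 CPM, and without WT replicate 1 it was called lower. In the interferon-stimulated list, 7 of 13 tested genes were above 0 (median 0.0057). Irf7, the amplifier of type I interferon, was at 191 and 133 CPM in WT and at 97.9 and 95.6 CPM in ERG CKO, and Ifi27l2a at 642 and 688 against 710 and 726 CPM, so the 2 genes separated in opposite directions. Of the 13 tested, 4 were lower and 1 higher in both ERG CKO libraries than in both WT libraries, against 13% and 22.1% of all genes. Isg15 overlapped, at 7.004, 36.3, 30.7 and 75.6 CPM.

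Immediate early and stress genes, which tissue dissociation is known to induce, had 5 of 14 changes above 0. Fos was at 1177 and 1091 CPM in WT and at 984 and 1171 CPM in ERG CKO, Junb at 2419 and 2627 against 1679 and 2827 CPM, and Jun at 231 and 219 against 337 and 292 CPM. Of these 3, the groups of Jun did not overlap. Inflammatory cytokines and their feedback genes had 8 of 13 changes above 0. Il1b, which encodes interleukin-1 beta, was at 985 and 1703 CPM in WT and at 1230 and 1444 CPM in ERG CKO. Cxcl2 ranged from 247 to 707 CPM with both extremes in ERG CKO, and the C-C chemokine genes Ccl3 and Ccl6 overlapped, whereas Ccl4 was at 16.3 and 54.9 against 87.9 and 69.0 CPM. Of the genes linked to matrix and fibrosis, 9 of 11 lay below 0. Tgfb1 overlapped at 344 to 505 CPM, Pdgfb at 28.0 to 45.6 CPM and Fn1 at 20.7 to 57.8 CPM. Thbs1, thrombospondin 1, was at 259 and 109 CPM in WT and at 106 and 55.6 CPM in ERG CKO, from 63 members in all.

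Lysosome and lipid handling genes held 6 of 12 with an unadjusted p under 0.05, against 4.75% of all genes. The list was split, with 6 genes above and 6 below 0. In both ERG CKO libraries 5 genes were higher and 4 lower than in both WT libraries, patterns shown by 22.1% and 13% of all genes. On the lower side without overlap were Lyz2, Apoe and Plin2, and on the higher side Lpl, lipoprotein lipase, at 14.01 and 22.8 CPM in WT and 70.7 and 27.8 CPM in ERG CKO. Lpl had 157 UMIs in 49 members, of which 4 cells held at least 50%. Ctss and Ctsb, cathepsins found in nearly all members, were at 1716 to 1835 and 1740 to 1887 CPM. Plin2, the coat protein of lipid droplets, was, like Lpl, picked here after its values were seen, and was at 523 and 437 CPM in WT and at 327 and 365 CPM in ERG CKO. Among survival genes, Bcl2 was at 114 and 152 against 131 and 186 CPM, and Mcl1 overlapped at 791 to 875 CPM, while Bcl2a1b, which is hard to tell from its near-identical copies in short reads, was at 350 and 440 against 491 and 522 CPM. Cell cycle genes were scarce. Mki67 had a UMI in 12 of 546 members and Top2a in 35, and Pcna overlapped at 86.4 to 108 CPM.

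The genotype effect in the members was then compared with that in other myeloid cells of the same mice, as the difference of the log2 changes in 1 edgeR model. Against alveolar macrophages (182, 117, 146 and 123 cells), 9 of 9406 genes (0.0957%) differed by edgeR with Benjamini-Hochberg adjustment, and none by DESeq2, with 501 and 81 genes at an unadjusted p under 0.05. Dab2 and Mmp12 were among them for the values given above, with alveolar macrophages at 438 and 405 CPM of Dab2 in WT and 509 and 338 CPM in ERG CKO. Lyz2 differed by -0.69 ± 0.10 (SE, edgeR adjusted p = 0.00358), as alveolar macrophages had 19721 and 19872 CPM in WT and 22255 and 23700 CPM in ERG CKO. Ftl1, ferritin light chain, was at 7156 and 6941 CPM in WT members and 6371 and 6081 CPM in ERG CKO members, against 9912 and 10949 and then 12907 and 14225 CPM in alveolar macrophages (difference -0.63 ± 0.10 SE, edgeR adjusted p = 0.0106). Zfp36l1, an RNA-binding protein that speeds mRNA decay, was at 280 and 335 CPM in WT members and at 522 and 499 CPM in ERG CKO members, and at 59.7 and 56.3 against 42.9 and 33.1 CPM in alveolar macrophages (difference 1.27 ± 0.23 SE, edgeR adjusted p = 0.0307). S100a6 was at 1067 and 894 against 790 and 805 CPM in the members and at 273 and 138 against 62.5 and 72.0 CPM in alveolar macrophages, so it was lower in ERG CKO in both and more so in the latter.

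Against classical monocytes (30, 39, 17 and 17 cells), 0 of 5769 genes differed by edgeR and 0 by DESeq2, with 260 and 28 genes at an unadjusted p under 0.05. The 5 genes of lowest p were S100a8, Nrgn, Ctla2a, Socs3 and Mgl2 (edgeR adjusted p 0.179 to 0.390). Socs3, a feedback inhibitor of cytokine receptors, was at 140 and 177 CPM in WT members and at 322 and 258 CPM in ERG CKO members, whereas classical monocytes had 381 and 519 against 248 and 394 CPM. For Mgl2 the difference was large but imprecise (9.64 ± 2.05 SE, edgeR adjusted p = 0.390), and it was called in 3 of 8 alternatives, with adjusted p from 0.000727 to 1. Classical monocytes had 6.10 and 2.09 CPM of Mgl2 in WT and 0 and 4.93 CPM in ERG CKO.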

How the data were processed

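Whole-lung cells of 4 mice were profiled by droplet single-cell RNA-seq. The authors deposited 1 matrix of raw UMI counts, 20076 rows by 9363 cells, made per the submitters' processing notes with Cell Ranger 3.1.0 on mm10; cell filters are not given in the sources used here. The matrix holds more cells than the study kept after its quality filter, and shares are of all cells in it. Cell names carry the library title, which gave genotype and replicate. UMI counts of 13 duplicated gene symbols were summed with their copies (20063 symbols). No deposited cell annotation was used. Doublets were called with scanpy 1.11.5 (58 cells, 0.619%) and kept. Cells are not replicates, so members' UMI counts were summed per mouse; nothing says whether the mice were littermates. Sums were tested with edgeR 4.0.16 (TMM, filterByExpr, quasi-likelihood, Benjamini-Hochberg adjusted p at most 0.05), DESeq2 1.42.0 being the alternative. Differences between cell types were tested in 1 edgeR model with the sums of both types, the library (1 per mouse) as a block, and the interaction of cell type with genotype. CPM are counts per 1000000 UMIs of the summed members. On simulated counts of the genotype comparison (6980 genes) the edgeR script called 41 of 94 genes changed 2-fold, 92 of 96 changed 4-fold and 10 of 6790 unchanged genes.

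The rule of the members, the gene lists and the comparisons were chosen with earlier results of these data known. Named genes were taken by rule: up to 8 genes of each list in its written order, all called genes, the 5 genes of lowest p in each direction and of each comparison of cell types, and the 20 leading genes. Samples share replicate numbers, but the labels tie them to no litter or day. The deviations of same-numbered libraries had a correlation of 0.096 over 7205 genes (2 pairs), so no pairing was assumed, although in both genotypes Xist was counted in replicate 1 and Ddx3y in replicate 2. WT replicate 1 had the fewest member UMIs (428314, against 899159 to 1399724), and so the least precise values. Alternatives were another normalization, no filter, a replicate block, each library left out, other marker limits, thinning to 1000 UMIs, and leaving out doublets, cells over 10% mitochondrial UMIs or cells with RNA of other types.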

Additional observations from a re-analysis of the deposited data

Results flagged for a closer look

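The genotype effect of 9 genes differed between non-classical monocytes and alveolar macrophages by a test of the interaction, and each value below is the log2 change (ERG CKO minus WT) in the monocytes minus that in the macrophages. It was 9.34 for Mmp12 and 5.29 for Dab2, both nearly absent from WT members. It was 1.55 for the metallothionein gene Mt1 (51.4 and 40.5 CPM in WT members, 249 and 89.0 CPM in ERG CKO members), 1.27 for Zfp36l1 and 1.18 for S100a6. It was -0.63 for Ftl1, -0.69 for Lyz2, -2.04 for Chil3 and -3.98 for Thbs1. Thbs1 was at 0.5 to 15.4 CPM in alveolar macrophages, so its value rests on few UMIs there. Of the 499 UMIs of Mt1 in the members, 4 cells held at least 50%. DESeq2 called none of the 9. Over 8 alternatives, from 3 calls for Thbs1 to 7 for Chil3 were made, and each gene kept its sign.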

How the results depend on the processing

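The share difference of 1.19 points kept its direction under other marker limits, denominators and cell filters, and ranged from -0.961 (without WT replicate 1) to 3.34 (without WT replicate 2) when a library was left out. The 3 calls between genotypes became 2 with DESeq2, 3 with relative log expression size factors, 65 with no filter on low counts, 0 with each gene's highest cell left out, 0 after thinning (103 at an unadjusted p under 0.05), 11 with 2 markers asked for, 0 with 4, 0 with all 5, 10 (all lower) without cells with UMIs of other types, 58 with no limit on Cd3e, Cd79a and Cdh5, and with a library left out 6 without either WT library, 14 and 17 without the ERG CKO libraries 1 and 2. The labels give same-numbered samples only a number, but those libraries also shared the Xist or Ddx3y signal, and the replicate block gave 8 calls (Mgl2, Mmp12, Dab2 and Mt1 higher, Chil3, Lyz2, Scgb1a1 and Thbs1 lower). Without members carrying 3 or more markers of another type, 2 genes were called, Mgl2 higher and Scgb1a1 lower. The cause of these moves was not tested.

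Against classical monocytes, the 0 calls became 15 with no filter, 5 with 4 markers, 4 without either WT library, and 26 and 41 without ERG CKO replicates 1 and 2. Against alveolar macrophages, the 9 calls became 0 with DESeq2, 61 with no filter, and 8 to 84 with a library left out, 84 being without ERG CKO replicate 2. Of 432 values of named genes under alternatives, 420 kept their direction. The log2 change turned to -2.24 for H2-Aa, -2.18 for H2-Ab1, -2.35 for H2-Eb1, -1.34 for Cd74, -1.41 for H2-DMa and -1.85 for H2-DMb1 without cells with UMIs of other types. It turned to -0.49, -0.21, -0.27, -0.11 and -0.23 for H2-Aa, H2-Ab1, Cd74, H2-DMa and H2-DMb1 without members carrying 3 or more markers of another type, an alternative added after seeing the data. Ctla2a against classical monocytes ranged from -3.63 to 0.036 when a library was left out. Genes under about 50 CPM rest on few UMIs in WT replicate 1.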

Other observations

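Some genes had much of their RNA in few members, in each case picked after their values were seen. Hmox1, heme oxygenase, was the most widely detected of them, with a UMI in 200 of 546 members (1018 UMIs), but 7 cells held at least 50% of its UMIs. Pf4, the chemokine of platelet granules, had 273 UMIs in 41 members, and 3 cells held that share. The haemoglobin gene Hbb-bs had 134 UMIs, of which 75 came from 1 cell. Retnlg, a neutrophil gene, had 164 UMIs, 97 of them from 1 cell.

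Pecam1, an adhesion gene of ECs, platelets and monocytes, was at 44.4 and 87.0 CPM in the WT libraries and at 326 and 97.9 CPM in the ERG CKO libraries, with a UMI in 238 members. ERG CKO replicate 1 stood apart from the other 3 libraries, and the gene was not called by edgeR.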
